A study of Mus musculus with 64 samples.

Results

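The Cyp2d cytochromes are a family of cytochrome P450 enzymes whose genes lie side by side on mouse chromosome 15. The genes described here are the 9 that the count files list as Cyp2d9, Cyp2d10, Cyp2d11, Cyp2d12, Cyp2d13, Cyp2d22, Cyp2d26, Cyp2d34 and Cyp2d40, out of 23338 genes listed for each library. They were taken by name, with earlier results of these data known, and their levels across the stages and the male against female difference in adult liver are among the values the genes were chosen from. Those values are therefore given as a description. Where a count of members past the thresholds is given for them, it stands beside the share of all genes past the same thresholds and nothing is read from it. The male against female comparisons of fetal liver and eight-cell embryos were not used in the choice and were tested, and in embryonic stem (ES) cells no member had enough reads for a test.

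RNA-seq read counts of 64 libraries from inbred C57BL/6 J mice were analysed. The animals carried no transgene or treatment that the labels name. The adult livers came from 12 males and 12 females of 15 to 20 weeks on standard chow, and the fetal livers from 12 male and 12 female late-gestation fetuses. The 4 ES lines, 2 male and 2 female, were each derived from an eight-cell embryo and grown in 2i medium, which holds the cells in a ground state of pluripotency, so that each is a single line. The 12 eight-cell embryos, 6 male and 6 female, came from natural matings, were sequenced whole after amplification of their cDNA, and were assigned to a sex from their own expression of sex-linked genes. The other stages were prepared with a stranded total RNA kit, so levels of embryos and of the other stages differ in library protocol as well as in tissue.

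Cytochromes P450 sit in the membrane of the endoplasmic reticulum and insert an oxygen atom into lipophilic molecules, using electrons passed on by the reductase Por and by cytochrome b5. The family is known in humans for CYP2D6, which metabolises many drugs, and the mouse carries many copies where the human genome has a single active gene. Cyp2d9 is a steroid hydroxylase that acts on testosterone and is known as a male-predominant enzyme of mouse liver, and Cyp2d22 is often taken as the mouse counterpart of CYP2D6. In rodent liver, sex differences of many P450 genes are known to follow the pattern of growth hormone release, which acts through the receptor Ghr, the kinase Jak2 and the transcription factor Stat5b.

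The family spans 423.926 kb of chromosome 15 (GRCm38, the NCBI name of mm10), from Cyp2d22 at chr15:82370527-82380260 to Cyp2d26 at chr15:82790107-82794452. In order along the chromosome the members are Cyp2d22, Cyp2d11, Cyp2d10, Cyp2d9, Cyp2d12, Cyp2d34, Cyp2d13, Cyp2d40 and Cyp2d26. RefSeq lists 8 of them as protein coding and Cyp2d13 (chr15:82636750-82642045) as a transcribed pseudogene. Cyp2d10 (chr15:82402845-82407253) and Cyp2d9 (chr15:82452377-82456827) lie on opposite strands, 45.123 kb apart, with their starts facing each other.

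The members are near-copies. Over the aligned transcript, Cyp2d9 was 93.4% identical to Cyp2d11, 91.63% to Cyp2d10 and 91.4% to Cyp2d12, against 81.19% to Cyp2d26 and 77.0% to Cyp2d22. Of the 50-base windows of the Cyp2d9 transcript, 71.618% occurred in no other gene, against 60.163% for Cyp2d10, 89.461% for Cyp2d26 and 93.86% for Cyp2d22. Reads that aligned to more than 1 place were not counted for any gene, so the counts of Cyp2d9, Cyp2d10 and Cyp2d11 rest on the stretches where they differ and are uncertain to that extent.

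The stretches upstream of the transcription start are shown so that Cyp2d9 can be compared with its closest copy. RefSeq promoters on GRCm38.p6 were matched for 5 of the 9 members (Cyp2d9, Cyp2d10, Cyp2d11, Cyp2d26 and Cyp2d40). The 250 bases before the start that this table uses follow for Cyp2d9, which differed between males and females in adult liver (chr15:82452127-82452376, plus strand), and for Cyp2d11, its closest copy by transcript (chr15:82394023-82394272, minus strand). For these and Cyp2d40, 0 of the 250 bases lie inside the RefSeq gene span. The gene spans of Cyp2d10 and Cyp2d26 given above reach past the start used in the table, so 59 and 207 of their 250 bases lie inside the gene, and the 2 stretches are not shown. Capitals mark the letters TTCCGGG and CAAAGGGCA.
Cyp2d9: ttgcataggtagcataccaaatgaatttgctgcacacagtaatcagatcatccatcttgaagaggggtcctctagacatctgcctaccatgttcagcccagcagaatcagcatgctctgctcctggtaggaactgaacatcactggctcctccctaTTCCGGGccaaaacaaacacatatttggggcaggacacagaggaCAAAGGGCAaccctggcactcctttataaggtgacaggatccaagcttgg
Cyp2d11: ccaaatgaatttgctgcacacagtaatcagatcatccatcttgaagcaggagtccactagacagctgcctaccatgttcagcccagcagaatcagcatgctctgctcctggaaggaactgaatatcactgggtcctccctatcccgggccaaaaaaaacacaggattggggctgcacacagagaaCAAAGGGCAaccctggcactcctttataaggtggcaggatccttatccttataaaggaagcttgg

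The Cyp2d9 stretch was 84.96% identical to that of Cyp2d10 over 246 aligned bases and 93.59% identical to that of Cyp2d11 over 234. The letters TTCCGGG begin 94 bases before that start of Cyp2d9. A stretch with these letters in the Cyp2d9 promoter is known from earlier work as a sex-difference information element bound by the ETS-family factor GABP. They occurred in 1 of the 5 promoters and, on either strand, in 5.842% of 32851 mouse promoters of the same table. The 30 bases around them are given for the members that align there, with Cyp2d9 in lower case throughout and capitals in the others marking bases that do not match Cyp2d9. They lie at chr15:82452271-82452300 for Cyp2d9, chr15:82394114-82394143 for Cyp2d11, chr15:82407274-82407303 for Cyp2d10 and chr15:82764262-82764291 for Cyp2d40.
Cyp2d9: ggctcctccctattccgggccaaaacaaac
Cyp2d11: ggGtcctccctatCccgggccaaaaAaaac
Cyp2d10: AgctcctccctaCAGGTggAcaaaCAaaac
Cyp2d40: ggcCTGtcTctaCAcTTAgccaaaCAaaac

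Counted from 1 at the left end of this window, Cyp2d11 differed from Cyp2d9 by C3G, T14C and C26A, written as the base of Cyp2d9, the position and the base of the other gene. Cyp2d10 did not match at 9 of the 30 positions and Cyp2d40 at 11. The letters CAAAGGGCA were found in 4 of the 5 promoters (Cyp2d9, Cyp2d10, Cyp2d11 and Cyp2d40) and in 0.472% of all promoters, and TATAAGG in all 5 and in 2.173% of all. These 3 runs of letters were chosen after the sequences had been seen. A further 3 motifs, TTCNNNGAA (the core bound by STAT factors, 8.298% of promoters), CAAAGTCCA (a site of the nuclear receptor Hnf4a, 0.475%) and CCGGAAG (a site of ETS factors, 8.858%), were found in none of the 5 on either strand, which says only that these letters are not in these windows.

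Reads on genes ranged from 1567583 to 4757610 per adult liver, 5145371 to 8499603 per fetal liver, 9857929 to 10386931 per ES line and 4659656 to 7725432 per embryo. Levels are given as CPM, the counts of a gene scaled to the total on all genes of its library, and 3 reads, the floor used here, came to between 0.289 and 1.91 CPM depending on the library, for counting error only. Livers carried the hepatocyte marker Alb at 15290.6 to 31457.4 CPM, whereas ES lines had at most 4 reads of it and embryos at most 1, and the pluripotency gene Pou5f1 was at 793.401 CPM or more in every ES line. Reads that aligned to several places and were left out of the counts amounted to 1.0883 to 2.2607 per counted read in adult males, against 0.7027 to 1.1739 in adult females and 0.5497 to 0.6312 in fetal livers. Reads that the counting step assigned to no feature amounted to 0.6732 to 0.9725 per counted read in fetal males. In fetal females they amounted to 0.5248 to 0.623, and the 2 ranges do not overlap. Such reads are called reads outside genes below, though reads in introns may be among them.

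In the adult liver, Cyp2d9 was the member with the large difference between males and females. In the 12 males it ranged from 1200.18 to 1875.08 CPM with a median of 1394.44 CPM, and in the 12 females from 12.187 to 47.607 CPM with a median of 35.7429 CPM. Every male therefore lay above every female, and the lowest male was 25.2 times the highest female. Males averaged 1440.68 ± 196.622 CPM and females 34.9 ± 10.1 CPM (SD, n = 12 each), a ratio of 41.3. In reads, the males had 2130 to 7830 and the females 31 to 114, so that the transcript was well above the floor in every female as well. The fitted log2 (male/female) of Cyp2d9 was 5.37 ± 0.15 (SE).

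The other members of adult liver differed between males and females by far less. Cyp2d10 ranged from 676.976 to 973.466 CPM in males (median 806.223) and from 612.887 to 788.155 CPM in females (median 676.841). All 12 males lay above the female median and 7 above every female, yet the groups overlapped, with a log2 (male/female) of 0.22 ± 0.05 (SE). Cyp2d22 ranged from 173.738 to 246.566 CPM in males (median 209.453) and from 134.45 to 229.519 CPM in females (median 172.244), with a log2 of 0.28 ± 0.07 (SE) and overlapping groups.

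Cyp2d26 went the other way. It ranged from 762.389 to 931.228 CPM in males (median 836.406) and from 900.264 to 1060.07 CPM in females (median 959.055). All 12 females lay above the male median and no male reached the female median, with a log2 (male/female) of -0.23 ± 0.04 (SE). Cyp2d13 ranged from 229.293 to 327.612 CPM in males (median 270.418) and from 210.919 to 300.474 CPM in females (median 253.598), and its log2 of 0.10 ± 0.07 (SE) was close to the size of its error.

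Cyp2d40 lay just under the fold used for a call. It ranged from 47.7318 to 99.45 CPM in males (median 72.5809) and from 29.0915 to 82.3588 CPM in females (median 50.8712), and 11 of 12 males lay above the female median. Its log2 (male/female) was 0.498 ± 0.134 (SE) against a threshold of 0.5. Cyp2d11 had 0 to 11 reads per male and 0 to 3 per female, with means of 1.58 and 0.553 CPM, and 8 males lay above every female. Cyp2d12 had at most 3 reads in a liver and Cyp2d34 a single read in 1 adult male, at or under the floor.

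**Figure D1:**
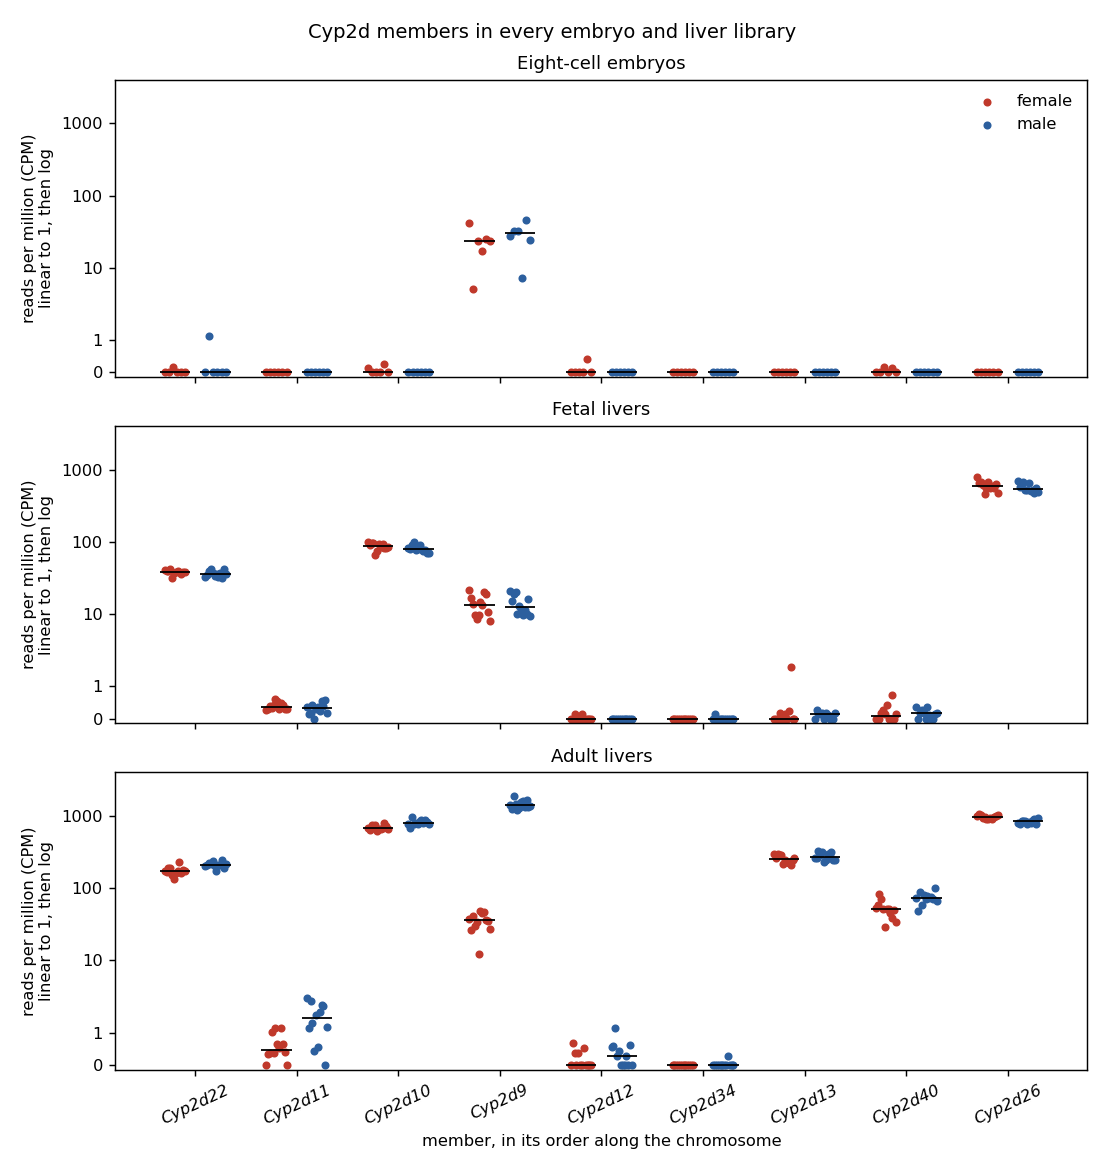
CPM of the 9 members (x axis, in their order along the chromosome) in eight-cell embryos, fetal livers and adult livers; each point is 1 library, black lines are medians, and the y axis is linear from 0 to 1 and logarithmic above. In adult liver the 12 male points of Cyp2d9 sit between 1200.18 and 1875.08 CPM and the 12 female points between 12.187 and 47.607 CPM, and in embryos Cyp2d9 is at 5.07 CPM or more in all 12 while the highest value of any other member is 1.13 CPM.

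A gene was called sexually dimorphic at a Benjamini-Hochberg adjusted p under 0.1 over all genes tested together with an absolute log2 (male/female) above 0.5. Of the 9 members, 6 passed the filter on low counts in adult liver and 1, Cyp2d9, was called, where 9.5% of the 10372 genes tested were called. This contrast is one the members were chosen with, so nothing is read from the count. The median log2 (male/female) of the 6 tested members was 0.25 and that of all genes tested -0.001. With DESeq2 or without the filter, Cyp2d11 and Cyp2d40 were called too, with a Cyp2d11 log2 of 1.59 and 1.54. In both cases Cyp2d11 was higher in males, on 63 reads in the 12 males together and 16 in the 12 females. In 16 of the 24 livers it was at or under the floor. Its transcript is 94.21% identical to that of Cyp2d10 and 93.4% to that of Cyp2d9. The part of shared sequence in its count was not tested.

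Several measures moved with gender in the adult livers beside these genes. The count of multiply aligned reads per counted read was higher in males, as given above. With it as a covariate the log2 (male/female) was 5.15 ± 0.18 (SE) for Cyp2d9, 0.10 ± 0.08 for Cyp2d10 and 0.25 ± 0.20 for Cyp2d40, while Cyp2d22 and Cyp2d26 kept 0.28 ± 0.10 and -0.23 ± 0.07. Of the 5 macrophage markers tested, 3 were lower in males (Clec4f, Emr1 and Vsig4), and the summed level of that list was 241.265 to 454.984 CPM in males and 330.369 to 746.099 CPM in females. The summed hepatocyte list was 35756.7 to 44624.6 CPM in males and 41962.8 to 51277.7 CPM in females. Of its 7 genes, 1 was called, Tdo2, higher in males. For the endothelial list the sums were 315.752 to 394.078 and 378.788 to 452.064 CPM, with 0 of 4 genes called. The summed erythroid list was 160.375 to 198.375 CPM in adult males and 15.3663 to 44.7437 CPM in adult females, almost all of it Alas2 (171 and 24.3 CPM on average), the heme synthesis enzyme of red cell precursors. Klf1, a transcription factor of red cell precursors, had at most 18 reads in an adult male and 19 in an adult female. The globin genes Hba-a1 and Hbb-b1 were at 0 in all adult livers but had at most 1 read in any fetal liver too, so their counts do not show whether red cells were present. The part of cell composition in the member differences was not tested, and fewer cells of a type and less RNA per cell cannot be told apart in whole tissue.

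**Figure D2:**
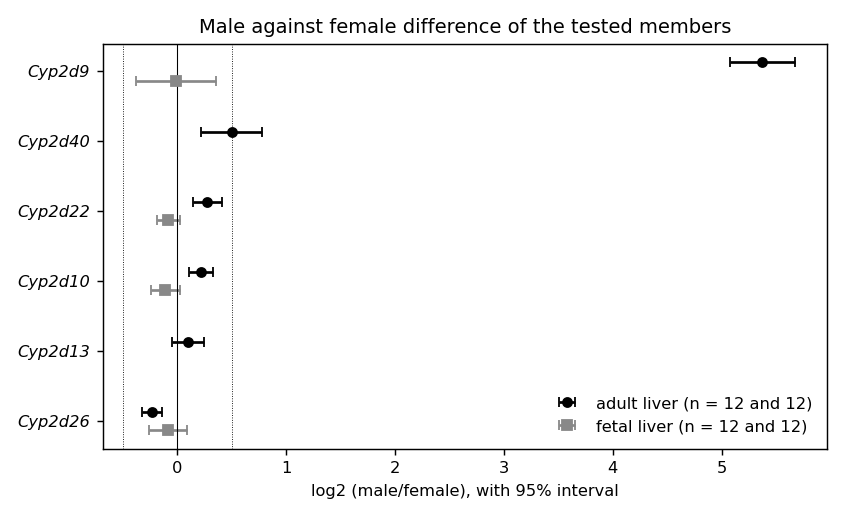
Log2 (male/female) of the tested members in adult liver (black circles) and fetal liver (grey squares), with 95% intervals, n = 12 males and 12 females at each stage; dotted lines mark 0.5 on either side of 0. Cyp2d9 stands at 5.37 in adult liver and at -0.01 in fetal liver, and the values of the other tested members lie within 0.5 of 0. Cyp2d40 is at 0.498 in adult liver, with an interval that crosses 0.5. Cyp2d13 and Cyp2d40 were not tested in fetal liver and have no value there.

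In the fetal liver, where the male against female difference was not used to choose the members, Cyp2d9 was found at similar low levels in both sexes. It ranged from 9.29 to 20.7 CPM in males (52 to 145 reads, median 12.4 CPM) and from 8.01 to 21.5 CPM in females (54 to 173 reads, median 13.6 CPM), with means of 13.9 ± 4.25 and 13.9 ± 4.68 CPM (SD, n = 12 each). The 2 groups covered nearly the same range. The log2 (male/female) was -0.01 with a 95% interval of -0.38 to 0.36 (edgeR quasi-likelihood test, adjusted p = 0.972). An interval of this width leaves room for a moderate difference in either direction, and its bounds lie far from the adult value.

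Cyp2d26 was the leading member of the fetal liver. It ranged from 474.407 to 703.518 CPM in males (median 537.926) and from 451.916 to 793.929 CPM in females (median 601.826), and the groups overlapped over most of their range. Its log2 (male/female) was -0.08 with an interval of -0.26 to 0.09 (edgeR, adjusted p = 0.494). Cyp2d10 followed at 69.3 to 98.1 CPM in males (median 79.3) and 66.6 to 98.8 CPM in females (median 87.1), with a log2 of -0.11 and an interval of -0.24 to 0.02 (edgeR, adjusted p = 0.199). Cyp2d22 ranged from 31.9 to 42.2 CPM in males (median 36.1) and from 31.9 to 42.4 CPM in females (median 38.7), with a log2 of -0.08 and an interval of -0.19 to 0.02 (edgeR, adjusted p = 0.233).

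Of the 9 members, 4 passed the filter in fetal liver and 0 were called, where 4.64% of 12930 genes were. None of the 4 had an unadjusted p under 0.05, and DESeq2 called 0 of the 4 it gave an adjusted p. The median log2 of the 4 members was -0.08, against -0.03 for all genes tested. The share of reads outside genes separated fetal males from fetal females completely, so its part and that of gender cannot be told apart. With that share as a covariate the count over all genes fell from 600 to 9. The log2 values were then -0.06 ± 0.35 (SE) for Cyp2d9 and 0.03 ± 0.17 for Cyp2d26. Markers of other tissue moved in a few fetal livers. Of 4 cholangiocyte markers, 1 was called higher and 3 lower in males, and their sum reached 327 CPM in a female (median 14.96) and 26.0 CPM in a male (median 16.5), while the exocrine pancreas list reached 642 CPM in a female and 349 CPM in a male. Without the 4 livers highest in Epcam or Ctrb1, the leading genes of these lists, 0 members were called.

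The members that were not tested in fetal liver were near the floor. Cyp2d11 had 0 to 4 reads per fetal liver, Cyp2d12 and Cyp2d34 at most 1, and Cyp2d13 and Cyp2d40 at most 2 in males.

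A single fetal female carried more reads of the 2 members that otherwise belong to adult liver. Fetal liver 22 had 13 reads of Cyp2d13 (1.88 CPM) and 5 of Cyp2d40 (0.722 CPM). It also held the highest counts among the fetal livers of Tdo2 (73 reads), which degrades tryptophan, and Tat (115 reads), which degrades tyrosine, both hepatocyte genes known to switch on around birth. Its Cyp2d9 level, 19.05 CPM, lay inside the range of the other females, and without this liver 0 members were called.

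The family as a whole was higher in adult than in fetal liver. In adult females the summed CPM of the 9 genes ranged from 1905.49 to 2397.32 (median 2203.77), and in adult males from 3203.27 to 4351.9 (median 3582.71). In fetal females it ranged from 559.687 to 954.945 (median 753), and in fetal males from 594.709 to 841.726 (median 665.317). Adult males lay above all adult females for this sum. Without Cyp2d9 the sum averaged 2208 ± 146 CPM in adult males and 2144 ± 114 CPM in adult females (SD, n = 12 each), so that the remaining 8 genes gave nearly equal totals in both sexes.

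The make-up of the family differed accordingly. Cyp2d9 supplied 34.4% to 43.1% of the Cyp2d reads in adult males (median 39.2%) and 0.640% to 2.28% in adult females (median 1.62%). In fetal liver it supplied 1.95% ± 0.402 in males and 1.85% ± 0.512 in females (SD, n = 12 each), so that males were 0.101 points higher (p = 0.593 by a two-sided permutation test). Cyp2d26 alone supplied 78.4% to 83.7% of the reads in the 24 fetal livers, whereas in adults it supplied 41.5% to 47.9% in females and 19.7% to 25.8% in males. The share of Cyp2d10 was 9.86% to 13.9% in fetal livers, 29.0% to 36.0% in adult females and 21.1% to 23.7% in adult males.

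**Figure D3:**
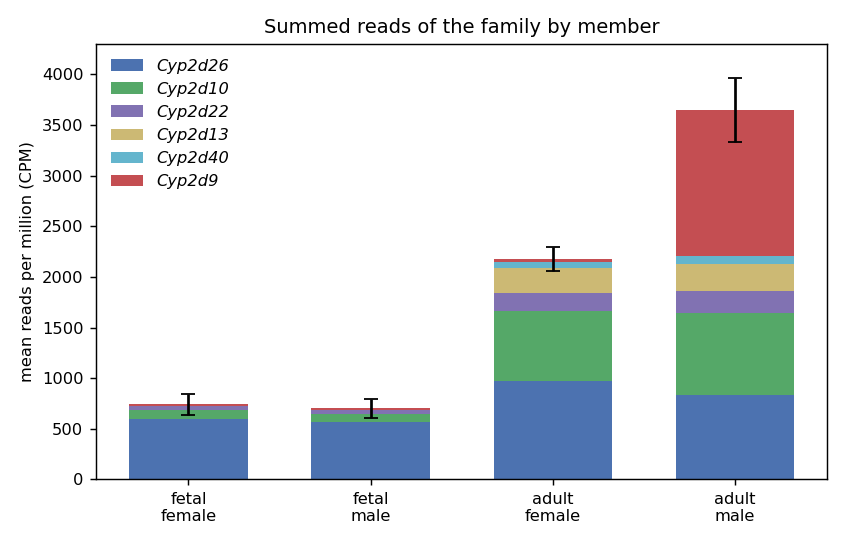
Mean CPM of the 6 members with adult levels above 10 CPM, stacked, in fetal and adult livers by sex (n = 12 each); error bars are the SD of the sum over all 9 members. The adult male column reaches a mean of 3648 CPM and the adult female column 2179 CPM, and most of the gap is the Cyp2d9 segment on top.

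Between the fetal and the adult stage, the members rose by very unequal amounts. Cyp2d13 was at 0 to 2 reads in fetal males and 229.293 CPM or more in adult males, and its mean in adult males was at least 473-fold and in adult females at least 529.9-fold higher than 3 reads in the shallowest fetal library of that sex. Cyp2d40 was in the same way at least 126-fold higher in males and 106-fold higher in females. For both genes every adult liver lay above every fetal liver. Cyp2d10 rose 10.1-fold in mean CPM in males and 7.97-fold in females, and Cyp2d22 rose 5.83-fold in males and 4.52-fold in females, again without overlap of the stages.

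Cyp2d9 followed the sexes apart, with a mean in adult males 103.8 times that of fetal males and a mean in adult females 2.52 times that of fetal females. In females the ranges overlapped, from 8.01 to 21.5 CPM in fetuses and from 12.2 to 47.6 CPM in adults. Cyp2d26 changed least, by 1.46-fold in males and 1.61-fold in females. The fitted log2 (adult/fetal) over both sexes, which uses TMM scaling, was 1.18 ± 0.05 (SE) for Cyp2d26, 2.93 ± 0.04 for Cyp2d22, 3.73 ± 0.05 for Cyp2d10 and 4.57 ± 0.12 for Cyp2d9. When libraries were scaled to the summed reads of 7 hepatocyte markers instead, the median of all genes moved from -0.05 to -1.39 and the value of Cyp2d26 turned to -0.15, while the other 5 tested members stayed above 1.5. The stages also differ in cell make-up. The summed erythroid list was 1688.05 to 2595.51 CPM in fetal livers and 15.3663 to 198.375 CPM in adult livers. The hepatocyte list was 21755.6 to 29432.5 and 35756.7 to 51277.7 CPM. The part of cell composition in the stage differences was not tested.

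All 6 of the members that passed the filter were called higher in adult than in fetal liver, where 67.1% of 13026 genes were called in either direction and 4132 were called higher. The stages are among what the members were chosen with, and nothing is read from this count. Cyp2d13 and Cyp2d40 failed the filter within fetal liver and passed here through the adult livers, where they are high. The difference between the adult and the fetal log2 (male/female) was called for 1 member, Cyp2d9, at 5.43 ± 0.23 (SE), where 13.7% of genes were. It was 0.41 ± 0.08 for Cyp2d22, 0.37 ± 0.08 for Cyp2d10 and -0.11 ± 0.09 for Cyp2d26. Since the adult difference was used in the choice, these are descriptions as well.

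Levels of different genes can be set side by side only per length of transcript. The length used was that of a single transcript per gene. It was 1712 bases for Cyp2d9, 1648 for Cyp2d10, 1700 for Cyp2d26, 2769 for Cyp2d22 and 1163 for Cyp2d40. The exons of each gene together came to 2658, 1648, 1792, 3909 and 1805 bases in the same order. In adult males the order in CPM per kilobase was Cyp2d9 (842 ± 115), Cyp2d10 (494 ± 45.0), Cyp2d26 (489 ± 32.3), Cyp2d22 (76.3 ± 6.96) and Cyp2d40 (63.3 ± 11.5, SD, n = 12 each). By transcript length, Cyp2d9 stood above Cyp2d10 in 12 of 12 males without overlap, whereas Cyp2d10 and Cyp2d26 traded places, with Cyp2d10 higher in 7 of 12. The lack of overlap is given for transcript length only, since the longer exon length would bring Cyp2d9 closer to Cyp2d10. Cyp2d22 and Cyp2d40 overlapped.

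In adult females the order was Cyp2d26 (570 ± 32.0), Cyp2d10 (421 ± 31.7), Cyp2d22 (62.5 ± 8.43), Cyp2d40 (43.9 ± 12.6) and Cyp2d9 (20.4 ± 5.89 CPM per kilobase). In this sex Cyp2d26 lay above Cyp2d10 in 12 of 12 livers without overlap, and Cyp2d9 was the lowest of the 5 in every liver. When length was counted only as 50-base windows that no other gene shares, Cyp2d10 moved ahead of Cyp2d26 in females, at 721 against 657 CPM per kilobase, and Cyp2d40 moved ahead of Cyp2d22 in males, at 87.0 against 82.7, so the order within these 2 pairs rests on how shared sequence is treated. With 100-base windows the order stayed as given. The order by the length of all exons was not computed.

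In fetal liver the order was the same in both sexes. In females Cyp2d26 stood at 353.5 ± 54.4, Cyp2d10 at 52.8 ± 6.02, Cyp2d22 at 13.8 ± 0.926 and Cyp2d9 at 8.09 ± 2.73 CPM per kilobase. In males the values were 335 ± 46.7, 49.1 ± 5.14, 13.1 ± 1.24 and 8.10 ± 2.48 in the same order. Cyp2d22 and Cyp2d9 overlapped in range, and Cyp2d22 was the higher of the 2 in 12 of 12 females and 11 of 12 males. Cyp2d13 has no transcript in the annotation used and is left out of this order.

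The eight-cell embryo held Cyp2d9 and almost nothing else of the family. In male embryos Cyp2d9 was at 27.4, 32.4, 32.4, 7.25, 46.3 and 24.5 CPM (embryos 1 to 6). In female embryos it was at 41.6, 5.07, 23.3, 17.1, 24.9 and 23.3 CPM (embryos 7 to 12). Every embryo had between 28 and 290 reads, and the 2 lowest, a male and a female, lay well under the rest. Male and female embryos overlapped, with a log2 (male/female) of 0.27 and a 95% interval of -0.76 to 1.30 (edgeR, adjusted p = 0.9999).

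Of the 9 members, only Cyp2d9 passed the filter in embryos and 0 were called, where 0.264% of 9087 genes were. Its unadjusted p was 0.589 (edgeR quasi-likelihood test), and DESeq2 called 0 of the 2 members it gave an adjusted p. The other 8 members together reached at most 1.13 CPM in a male embryo, from 7 reads of Cyp2d22, and 0.803 CPM in a female embryo. Cyp2d26 and Cyp2d13 had no read in any of the 12. In the ES lines Cyp2d9 had no read, which allows at most 0.304 CPM in the shallowest line. Cyp2d22 had 1 to 5 reads per line and Cyp2d26 at most 2, and no member passed the filter, where 9.5% of 12678 genes were called. The embryo libraries were amplified and prepared by another protocol, and the part of that in the difference from ES lines cannot be told apart from the stage. The annotation also holds a Cyp2d9 transcript that starts upstream of the RefSeq start, and counts per gene do not show which transcript the embryo reads came from.

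Between animals of 1 sex and stage, several members varied together. Correlations were computed on log2(CPM + 0.5) for the members with a group mean of at least 10 CPM, in each of the 4 groups of 12 livers, 42 pairs in all. Pearson's r was positive in 41 and passed an adjusted p of 0.1 in 10, and by Spearman's rho 8 passed. The points share library scaling, which can move all members of a library together.

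In fetal liver, Cyp2d10 and Cyp2d26 went together in both sexes, with r = 0.78 and rho = 0.76 in females (permutation p = 0.00309 and 0.00546, adjusted 0.026 and 0.0517) and r = 0.75 and rho = 0.68 in males (permutation p = 0.00506 and 0.0185, adjusted 0.0354 and 0.0974). Without the 2 livers farthest from the median of Cyp2d10, r was 0.70 and 0.64. Cyp2d10 and Cyp2d22 had r = 0.81 in fetal females (permutation p = 0.00214, adjusted 0.026), and 0.56 without the 2 farthest. This did not repeat in fetal males, at r = 0.21 (permutation p = 0.510, adjusted 0.670), and -0.48 without the 2 farthest. Cyp2d9 and Cyp2d26 had r = 0.81 and rho = 0.87 in fetal males (permutation p = 0.00273 and 0.0005, adjusted 0.026 and 0.021), and 0.63 without the 2 farthest. In fetal females that pair had r = 0.65 and rho = 0.60 (permutation p = 0.0207 and 0.0443, adjusted 0.0909 and 0.155), and 0.39 without the 2 farthest. By rho it did not pass. Leaving out the farthest livers also narrows the range, so a lower r does not show what a pair rests on.

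In adult males, Cyp2d9 and Cyp2d10 had r = 0.83 and rho = 0.73 (permutation p = 0.00084 and 0.00896, adjusted 0.026 and 0.0627), and 0.60 without the 2 males farthest from the median of Cyp2d9. In adult females the same pair had r = 0.45 and rho = 0.32 (permutation p = 0.138 and 0.306, adjusted 0.298 and 0.495), and -0.23 without the 2 farthest. Given the share of reads outside genes, the pair passed in both sexes. There r was 0.68 in females (permutation p = 0.0146, adjusted 0.0559) and 0.77 in males (permutation p = 0.0033, adjusted 0.0231). The difference between the sexes was not tested. In adult males Cyp2d13 went with Cyp2d22 (r = 0.77 and rho = 0.78, permutation p = 0.00218 and 0.00375, adjusted 0.026 and 0.0517, and 0.82 without the 2 farthest), and in adult females with Cyp2d40 (r = 0.70 and rho = 0.78, permutation p = 0.0115 and 0.00442, adjusted 0.0602 and 0.0517, and 0.71 without the 2 farthest).

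**Figure D4:**
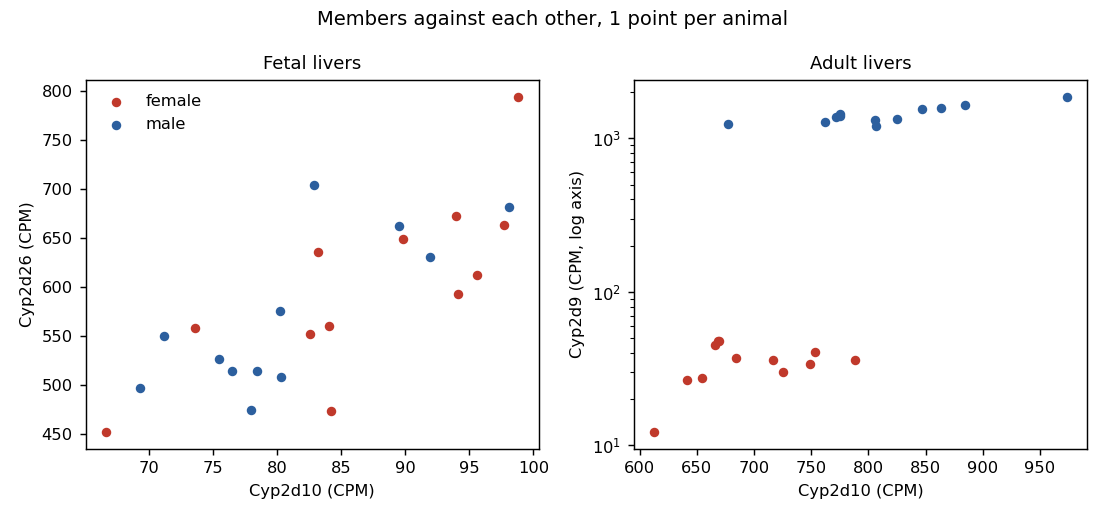
Left, Cyp2d26 against Cyp2d10 (both CPM) in 24 fetal livers; right, Cyp2d9 (CPM, log axis) against Cyp2d10 (CPM) in 24 adult livers; each point is 1 animal, coloured by sex. Fetal males and females share 1 rising cloud, whereas adult animals form 2 bands, males between 1200.18 and 1875.08 CPM of Cyp2d9 and females between 12.187 and 47.607 CPM.

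Over the 24 adult livers, the 5 genes with the profile most like that of Cyp2d9 on log2(CPM + 0.5) were Uty (Pearson's r = 0.988), Kdm5d (0.988) and Ddx3y (0.987), which are on the Y chromosome, and the P450 genes Cyp4a12b (0.986) and Cyp4a12a (0.986). Across both sexes this likeness is one of male against female. Cyp4a12a ranged from 75.5 to 195.6 CPM in males and from 0 to 0.675 CPM in females, so that, unlike Cyp2d9, females had hardly a read of it.

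After the mean of each sex was subtracted, the nearest genes over the 24 adult livers were others. For Cyp2d9 they were Igsf11 (r = 0.79), Nsdhl (0.78), an enzyme of cholesterol synthesis, and Abcg2 (0.76), an export pump. For Cyp2d10 they were Gnptg (0.81), Oit3 (0.79) and Cyp27a1 (0.78), a P450 of bile acid synthesis. For Cyp2d40 they were Bcl6 (0.77), a repressor known in the male pattern of liver genes, Arhgef3 (0.73) and Glrx5 (0.72). The nearest genes of Cyp2d13 were Car5a (0.76), Phyhd1 (0.74) and Echs1 (0.74), those of Cyp2d22 were Slc23a1 (0.77), Shmt2 (0.77) and Slc2a2 (0.75), and those of Cyp2d26 included Cul4a (0.73) and Spag7 (0.73). These are the highest of 10371 values each and are given as a description.

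Genes of the pathway around the P450 enzymes were taken from lists chosen with earlier results known. The counts here and in the next 3 paragraphs stand against the shares of all genes called. These were 9.5% by gender in adult liver and 4.64% in fetal liver. From fetus to adult, 31.7% of genes were called higher and 35.4% lower. The list named redox partners held 6 genes, of which 5 were measured. Cytochrome b5 type A was not in the count files under its name Cyb5a. Among the 5 is Alas1, an enzyme of heme synthesis rather than a redox partner. Por, the reductase that feeds electrons to P450 enzymes, was called lower in adult males than in adult females. It ranged from 124 to 316 CPM in males and from 193 to 347 CPM in females. Its log2 (male/female) was -0.60 ± 0.14 (SE), and the other 4 did not pass. In fetal liver 0 of the 5 were called. All 5 were called higher in adult than in fetal liver, among them the heme synthesis enzyme Alas1 at 3.34 ± 0.15 and cytochrome b5 type B (Cyb5b) at 3.15 ± 0.06 on the log2 scale. All 7 hepatocyte markers were called higher as well, so the count is not particular to this list.

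Of 12 transcription factors listed as regulators, 2 were called higher in adult males, Cebpb at 0.91 ± 0.24 (SE) and Cebpd at 0.71 ± 0.28, both of the C/EBP family, and 10 did not pass. Hnf4a, a main activator of hepatocyte genes, had 0.15 ± 0.09, and Gabpa, the DNA-binding subunit of GABP, had 0.03 ± 0.06. In fetal liver 1 of the 11 tested was called, Onecut1, at 0.82 ± 0.20. That fit did not hold the share of reads outside genes, with which calls over all genes fell from 600 to 9. That share separates the fetal sexes completely, so its part and that of gender cannot be told apart. From fetus to adult 9 of the 12 were called higher and 0 lower, with the orphan receptor Nr0b2 at 6.51 ± 0.17.

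Of 8 genes of the growth hormone axis, 1 was called higher and 2 lower in adult males. Bcl6 was higher, at 7.73 to 70.2 CPM in males and 1.91 to 32.8 CPM in females (log2 1.79 ± 0.43, SE). Cux2, a factor known as female-specific in liver, had at most 3 reads in any adult male and 16.8 to 56.5 CPM in females, and Socs2, a feedback inhibitor of growth hormone signalling, had a log2 of -2.14 ± 0.34. In fetal liver 0 of the 8 were called, and Cux2 was at 31.8 to 62.5 CPM in males and 25.1 to 38.4 CPM in females. From fetus to adult 5 of the 8 were called higher and 2 lower. On the log2 scale and over both sexes, the receptor Ghr rose by 3.03 ± 0.04 (SE), whereas the kinase Jak2 fell by 1.21 ± 0.05. Cux2 fell by 2.79 ± 0.15 over both sexes. Compared within each sex, Cux2 was called lower in adult than in fetal males. It was not called in females, whose fetal and adult ranges overlap.

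Among the 34 other genes within 500 kb of the family, 19 were tested in adult liver and 1, the immune receptor Nfam1, was called, lower in males at -0.58 ± 0.18 (SE). In fetal liver 24 were tested and 2 were called, the noncoding Tbrg3 higher in males at 0.80 ± 0.07 and the small nuclear RNA Rnu12 lower at -0.62 ± 0.19. As for Onecut1, both calls come from the fit without the share of reads outside genes. From fetus to adult 5 were called higher and 9 lower. The pseudogene Cyp2d37-ps, which lies between Cyp2d13 and Cyp2d40 in the cluster, was one of the 5, at 14.4 to 27.2 CPM in fetal males and 101.5 to 156.5 CPM in adult males. In adult females it was at 74.2 to 131.6 CPM, and its log2 (male/female) was 0.22 ± 0.09 (SE).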

How the data were processed

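The authors deposited raw counts: whole-number read counts per gene symbol from HTSeq for each of the 64 libraries, not normalized. Per the labels and the study's methods, reads were aligned to mm10 with TopHat 2.0.4 and Bowtie2 2.1.0, handled with SAMtools 0.1.18, and freed of duplicates with Picard, which lowers counts most for strongly covered genes. Multiply aligned reads were counted for no gene. The 5 summary lines of each file were left out of totals. CPM were computed from library totals.

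Males and females were compared within each stage with edgeR 4.0.16 (TMM, filterByExpr, robust quasi-likelihood F test), and the 48 livers were fitted together for stage and interaction. Alternatives included DESeq2 1.42.0. SEs were the absolute log2 over the square root of F. Permutation tests were two-sided with 100000 resamples. The fits were tested on simulated data. The named genes were the members, fixed lists, neighbours within 500 kb and the nearest profiles, of which some results are not reported here. Members and lists were chosen with earlier results of these data known. Libraries of a group are separate animals, embryos or lines. By the study's methods the embryos came from fewer litters than there were embryos, and the tests took them as independent. Lane and litter of single libraries were not given in the sources used here. Sequences come from RefSeq tables (GRCm38.p6), transcripts from GENCODE.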

Additional observations from a re-analysis of the deposited data

Results flagged for a closer look

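The log2 (male/female) of 3 members differed between adult and fetal liver in the fit of the 48 livers. The difference, adult minus fetal, was 5.43 for Cyp2d9, 0.41 for Cyp2d22 and 0.37 for Cyp2d10. The adult part of this contrast was among the values the members were chosen with, so the difference is a description.

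In the eight-cell embryos, 3 values stood apart from the others of their sex by Dixon's criterion, among 7 groups of 6 embryos that had any spread. They were Cyp2d22 in male embryo 2 (1.13 CPM, 7 reads, the others at 0), Cyp2d22 in female embryo 9 (0.172 CPM, 1 read) and Cyp2d12 in female embryo 11 (0.402 CPM, 3 reads). Chance flags about 5% of such groups, and groups that are at 0 but for a few reads in 1 embryo meet the criterion whatever their size. The last 2 of these values are at or under the floor of 3 reads.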

How the results depend on the processing

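The count of members called in adult liver, 1, was 5 without a fold threshold, 2 with DESeq2 size factors, with the share of reads outside genes as a covariate and in the joint fit of the 48 livers, and 3 without the filter and with DESeq2. Cyp2d40 crossed the fold of 0.5 in the last 5 of these settings, at 0.51 to 0.53. Cyp2d9 was called in every setting, with a log2 between 5.15 and 5.55. The interaction count, 1, was 3 without a fold threshold and 2 without the filter and with DESeq2. The title number as a replicate block left 6 of 6 members called between the stages. The numbers name different animals, and the correlation of same-numbered livers was -0.08 to 0.05 over 24 pairs, so the samples share only a number. Scaling to hepatocyte markers turned Cyp2d26 to -0.15. The fits with the multiply aligned share, with adult livers under 0.5 reads outside genes per counted read, and without fetal liver 22 or fetal livers 12, 14, 15 and 24 were chosen after seeing the data and changed no count of members. Pairs of members past an adjusted p of 0.1 numbered 10, 13 given the share outside genes and 10 with a pseudocount of 5, and 14 of 18 places in the order per length were kept with 50-base windows. The count in fetal liver stayed at 0 members in every setting, with 4 or more tested, and in embryos at 0 with 1 tested, 5 without the filter and 2 given an adjusted p by DESeq2. In ES lines no member was tested in the fit or without each line in turn (each such fit leaves 1 line in an arm, assumed to vary like the others), so those counts of 0 say nothing, 0 of 2 were called without the filter, and DESeq2 gave those 2 no adjusted p. Over all genes, counts moved by over 1.5 times from 985 (3399 without a fold threshold, 1518 without the filter, 611 with the multiply aligned share), 600 (4807, 1057 without the filter, 9 with the share outside genes), 24 (80 with DESeq2) and 1786 (4382 without a fold threshold), and in ES lines from 1205 to between 0 and 3070 without 1 line. Adult livers were the shallowest, which limits Cyp2d11, Cyp2d12 and Cyp2d34.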
